A study of Rattus norvegicus with 59 samples.

Results

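H3K27me3, trimethylation of lysine 27 on histone H3, was compared between the baseline groups of 2 experiments on rat heart: sham-operated rats and untrained control rats. The comparison was the deposited sham column minus the deposited control column in the same genomic bins, and it rested on 4 sham and 4 control samples, 8 of the 59 samples of the series. The bins, 9703 of the 15874 bins given for both histone marks of the series, were segments of the genome found by circular binary segmentation, per the names the authors gave the tables. Values were the log2 of RPM, reads scaled to a common library size, per bin, and the authors gave 1 column for each group, so no bin had a replicate value and no difference could be tested. All rats were male Sprague Dawley, and all nuclei came from the left ventricle and were sorted for PCM1, a centriolar satellite protein used to mark cardiomyocyte nuclei. Sham-operated rats weighed about 170 g at the start and went through the same operation as aorta-banded rats, with the suture left loose. Control rats weighed about 280 g and were not assigned to exercise. The other group of each experiment served for comparison: rats of about 170 g with a banded aorta for 6 weeks, retained where the heart had grown without failing, and rats of about 280 g trained on a treadmill for 6 weeks, again with 4 H3K27me3 samples in each. Start weight, surgery and experiment differed together between sham and control rats and cannot be told apart. The labels do not say that each sample came from a separate animal.

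H3K27me3 is written by Polycomb repressive complex 2, whose catalytic subunit is EZH2 or EZH1, and is removed by the demethylases KDM6A and KDM6B. It forms broad domains over silent genes, and in cardiomyocytes it is known for keeping developmental and other-lineage genes off. Chromatin was cut with micrococcal nuclease from at least 100000 sorted nuclei, and nucleosomes with the mark were drawn down with an antibody and sequenced. The bins covered 2510 Mb of chromosomes 1 to 20, with 0 bins on X, and were 20.0 to 4620 kb long with a median of 160 kb. Bins are named by the authors' coordinates, whose build the sources used here do not give, and for that reason no gene was placed on a bin and no sequence is shown. Gene IDs of the RNA tables could not be paired with names, so neither cardiomyocyte marker genes nor the genes that write and erase the mark could be checked by name.

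Taken per unit of bin length, the H3K27me3 landscape was flatter in sham than in control rats. Without division by length, the SD of log2 RPM over bins was 1.38 in both columns. The smaller spread per Mb therefore says that levels in sham followed bin length more closely than levels in control. Per unit of length, the densely marked bins were lower in sham and the sparsely marked bins were higher. On the scale of log2 RPM per Mb, the spread of levels over the 9703 bins had an SD of 0.673 in sham and 0.838 in control. The level at the 90th percentile was 3.26 times that at the 10th percentile in sham and 4.52 times in control. The low end was higher in sham (10th percentile 7.73 against 7.51 log2 RPM per Mb) and the high end was lower (90th percentile 9.43 against 9.68). The aorta-banded column resembled sham in this spread, with an SD of 0.683, and the trained column resembled control, with an SD of 0.880. The spread was smaller in sham than in control on each of 20 chromosomes, where the SD was 0.563 to 0.717 in sham and 0.701 to 0.913 in control.

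Differences of single bins were mostly small. The sham minus control difference had an SD over bins of 0.248 log2 RPM, with 5% of bins below -0.38 and 5% above 0.40. It was above 0 in 4702 bins, below 0 in 4992 and exactly 0 in 9. Balance of this kind is built into the columns: their sorted values were nearly identical (median difference 0.000213 between the ranks of sham and control) and each summed to about 0.967 M RPM, as after quantile normalization over bins. A gain or loss of the mark over the whole genome could therefore not appear. Sham and control stand in separate deposited tables, and whether these were normalized together is not stated. Within the experiments the columns lay closer together, with an SD of 0.117 for banded minus sham and 0.109 for trained minus control. Across the experiments the SD was 0.284 for banded minus trained.

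A difference past 0.5 log2 RPM, a 1.41-fold difference, was found in 305 bins, 3.14% of those compared. Of these, 176 (1.81%) were higher in sham and 129 (1.33%) were lower. A difference past 1 was found in 8 bins (0.0824%), of which 6 were higher (0.0618%) and 2 lower (0.0206%). The same threshold of 0.5 took in 4 bins for banded minus sham (0.0412%) and 12 for trained minus control (0.124%), of which 8 were higher (0.0824%). Higher bins made up 57.7% of the 305 as deposited. When both columns were first set to the same mean and SD per Mb, 100 bins were past 0.5 and 37% of them were higher, and with quantile normalization per Mb 85 were past it and 37.6% were higher, so the balance of the directions depends on the scaling. Other choices moved it the opposite way: with a pseudocount of 18.4 RPM added before the log, 53 bins were higher and 10 lower, and without bins shorter than the median, 167 were higher and 4 lower.

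The bins higher in sham were long and sparsely marked. Their median length was 445 kb (interquartile range 320 to 630 kb), against 160 kb for all bins (90.0 to 310 kb), and they spanned 89.5 Mb, 3.56% of the length covered. Their median level was 8.06 log2 RPM per Mb in sham and 7.48 in control, below the medians of all bins, 8.42 and 8.40. The bins lower in sham were short and densely marked. Their median length was 50.0 kb (40.0 to 70.0 kb), and they spanned 8.63 Mb, 0.344% of the length covered. Their median level was 9.07 log2 RPM per Mb in sham and 9.66 in control. Both sets were spread over the genome, each with bins on all 20 chromosomes.

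Dividing the bins into 10 equal classes by density, the mean of the sham and control levels per Mb, showed a graded order. The classes were cut on the same 2 columns as the difference. The direction of this order therefore restates the smaller spread in sham and is not a further result. In the sparsest class the median difference was 0.22 log2 RPM (1.17-fold higher in sham) and 88.7% of bins were higher in sham. In the next 2 classes the medians were 0.23 and 0.17. The difference crossed 0 between the fifth class (0.037) and the sixth (-0.0068). In the densest class the median difference was -0.26 log2 RPM (1.20-fold lower in sham), and 0.618% of bins were higher in sham. The 2 sparsest classes were alike, and from there on each class had a lower median than the one before.

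**Figure D1:**
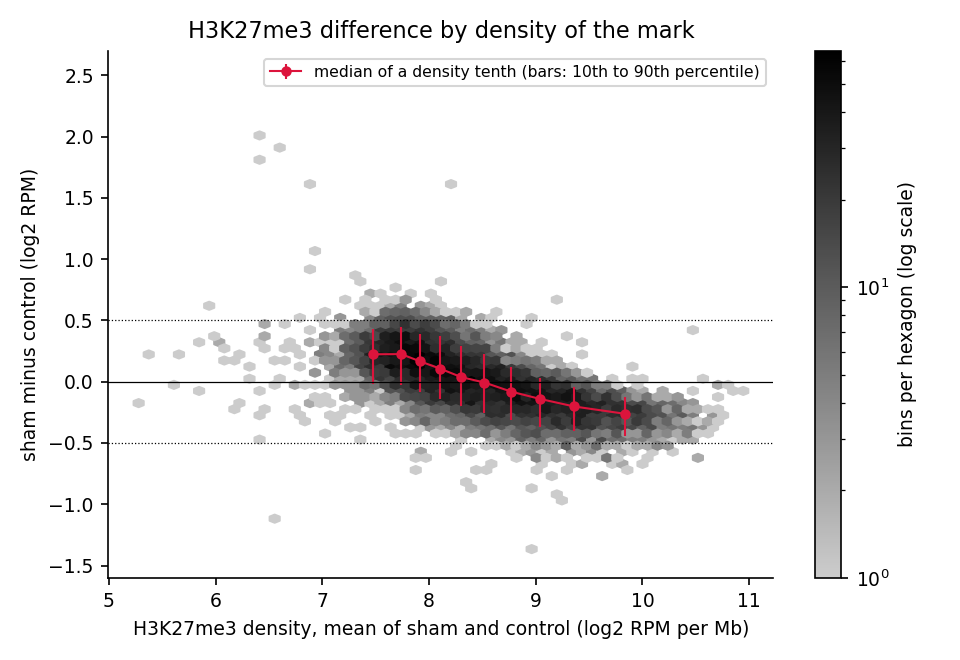
Difference in H3K27me3 between sham and control (vertical axis, log2 RPM) against the density of the mark (horizontal axis, log2 RPM per Mb) for 9703 bins, shaded by the number of bins per hexagon on a log scale. Red points are medians of 10 density classes with bars from the 10th to the 90th percentile; they run from 0.22 in the sparsest class to -0.26 in the densest, and dotted lines mark 0.5 and -0.5.

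Fitted over all bins, the difference was lower by 0.22 log2 RPM for each doubling of density (slope -0.22, Pearson r -0.669, Spearman rho -0.710, 44.7% of the variance over bins). These bins share 2 columns and the same normalization, and the density holds the same 2 columns as the difference. With the density taken from the banded and trained columns in their place, a choice made after seeing the data, the slope was -0.23. The slope was negative on 20 of 20 chromosomes, from -0.25 to -0.20. With density from the same 2 columns, the sign of the slope is fixed by which column has the smaller SD per Mb. These negative slopes, over all bins and per chromosome, therefore restate the smaller spread in sham and are not further results. The corresponding slopes within the experiments were 0.014 for banded minus sham (Pearson r 0.082, 0.680% of the variance) and 0.050 for trained minus control (r 0.393, 15.4%). A trend with density, of the opposite sign and smaller, was thus also present within the exercise experiment. Its sign again restates the spread per Mb, which was larger in trained (SD 0.880) than in control (0.838). For banded minus trained, which again sets the lighter, operated rats against the heavier ones, the slope was -0.26.

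Bin length also went with the difference. The SD of log2 RPM over bins was 1.38 in both columns, and density is the mean of the 2 columns minus log2 length. A fall with density and a rise with length are therefore tied by the equal spread of the columns and are not separate results. The Spearman rho of the difference with length was 0.393 over the 9703 bins. From the shortest to the longest of 10 length classes, the median difference went from -0.18 to 0.13 log2 RPM. Of the 129 lower bins, 75 lay in the shortest class and 35 in the next, while 122 of the 176 higher bins lay in the 2 longest classes, with 65 and 57. In every length class the denser bins were lower than the sparser ones, by 0.21 to 0.36 between class medians. In every density class the longer bins were higher than the shorter ones, by 0.13 to 0.19. These splits describe the bins and do not separate an effect of length from one of density. A joint fit gave slopes of -0.21 per doubling of density and 0.064 per doubling of length and covered 54.9% of the variance over bins.

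**Figure D2:**
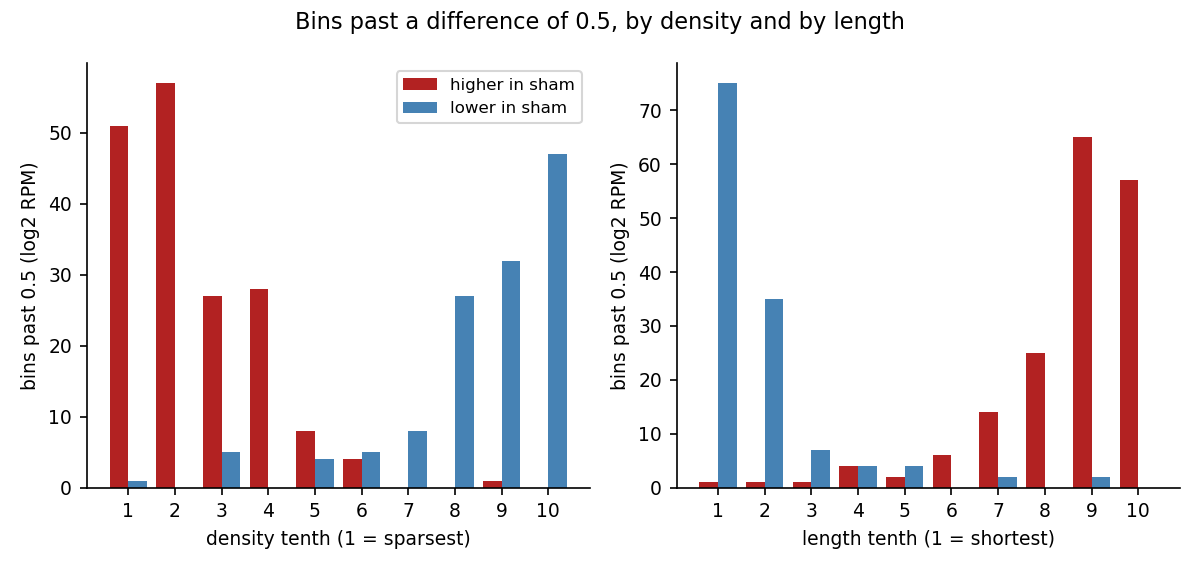
Number of bins past a difference of 0.5 log2 RPM (vertical axis) in 10 classes of density (left) and 10 classes of length (right), red for bins higher in sham and blue for bins lower in sham. The 2 sparsest classes held 51 and 57 of the higher bins and the densest held 47 of the lower bins; by length, the shortest class held 75 of the lower bins and the 2 longest held 65 and 57 of the higher bins.

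The banded and trained columns give a further difference between the same 2 experiments from columns that sham and control do not share, although bins and normalization are common to all 4. In it, 630 bins were past 0.5 (6.49%), of which 355 were higher (3.66%) and 275 lower (2.83%). All 176 bins higher in sham were above 0 in banded minus trained, with a median of 0.62 log2 RPM, and 152 were past 0.5 there. All 129 bins lower in sham were below 0 there, with a median of -0.57, and 88 were past -0.5. Over the 9703 bins, 89.6% had the same sign in both differences and the Pearson r was 0.921 (Spearman rho 0.924). After the trend with density and length was taken out of each difference, r was 0.787. No bin was past 0.5 in opposite directions (0 of 305).

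**Figure D3:**
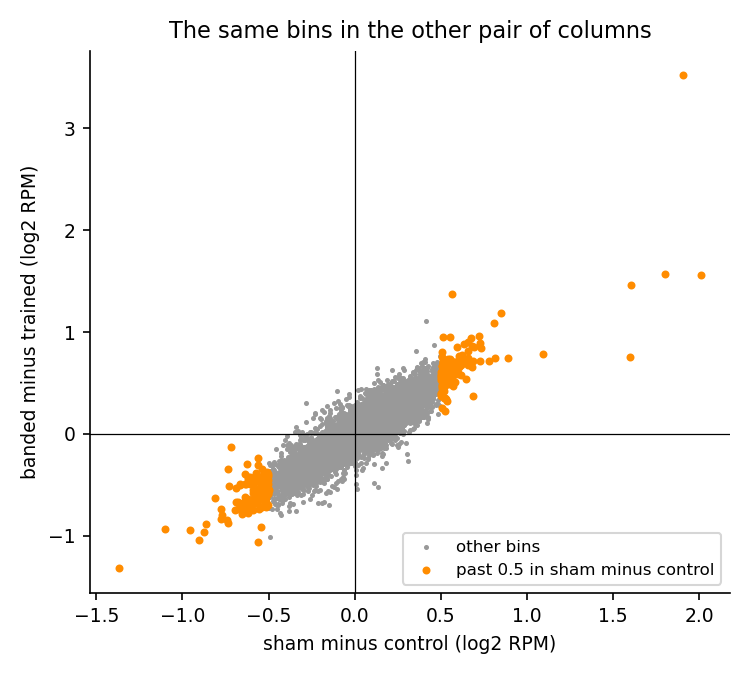
Banded minus trained (vertical axis) against sham minus control (horizontal axis), both in log2 RPM, 1 point per bin; orange points are the 305 bins past 0.5 in sham minus control. All 305 have the same sign in both differences, and the bin farthest from the rest stands at 1.90 and 3.52.

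Among the bins with the largest differences, the bin on chromosome 5 from 133995000 to 134525002 (530 kb) had 4.72 log2 RPM in control, 3.43 in trained, 6.62 in sham and 6.95 in banded rats. Both columns of the surgery experiment were therefore above both columns of the exercise experiment. In linear units this was 26.3 RPM in control and 98.5 RPM in sham, 3.74-fold higher, and the trained minus control difference of this bin was itself -1.28 on the log2 scale. The nearest bins on either side, each separated from it by a stretch without a bin, had sham minus control differences of 0.13 before and -0.025 after, and banded minus trained differences of 0.37 and -0.086. Per Mb the bin stood at 5.63 log2 RPM in control, below those neighbours (7.23 and 8.62), and at 7.54 in sham.

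Chromosome 6 held 3 of the 6 bins that were higher by more than 1. The bin from 139065000 to 139295002 had 3.95 log2 RPM in control, 4.25 in trained, 5.55 in sham and 5.71 in banded rats, a sham minus control difference of 1.61. The next bin, from 139305000 to 139965002, had 5.77 in control, 6.25 in trained, 6.86 in sham and 7.04 in banded rats, a difference of 1.09. The neighbours outside this pair differed by -0.044 and 0.00098. Farther along, the bin from 142965000 to 143115002 differed by 1.80, from 2.80 in control to 4.60 in sham. In all 3 bins both surgery columns were above both exercise columns. Between them lay a bin with the opposite sign, from 140875000 to 140945002 (70.0 kb), with 4.88 in control, 4.85 in trained, 4.07 in sham and 4.22 in banded rats, a difference of -0.81 (-0.44 with the pseudocount).

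As deposited, chromosome 4 held the largest positive difference and the second largest negative one. The bin from 101395000 to 101525002 (130 kb) had 2.51 log2 RPM in control, 3.25 in trained, 4.52 in sham and 4.82 in banded rats, a difference of 2.01. The control value corresponds to 5.68 RPM, among the lowest 10% of bins by mean level. This bin and the one from 142965000 on chromosome 6 lie in that lowest 10%, outside the rule for named bins, and were named after their values were seen. With the pseudocount, their differences were 0.78 and 0.75, below those of the chromosome 5 bin (1.39) and of the bins from 105735000 on chromosome 7 (1.01) and from 139065000 (0.95) and 139305000 (0.89) on chromosome 6, so the rank depends on how low levels are treated. The bin from 98445000 to 98985002 (540 kb) had 6.19 in control, 6.17 in trained, 5.08 in sham and 5.24 in banded rats, a difference of -1.10. It was sparse in control already, at 7.08 log2 RPM per Mb, and lower still in sham, at 5.97.

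On chromosome 7, the bin from 105735000 to 105845002 (110 kb) had 4.20 log2 RPM in control, 4.22 in trained, 5.80 in sham and 4.98 in banded rats. Its sham minus control difference was 1.60 and its banded minus trained difference 0.76; here the banded column lay between sham and the exercise columns. The largest negative difference was on chromosome 2 from 140675000 to 140755002, with 6.04 log2 RPM in control, 6.07 in trained, 4.67 in sham and 4.75 in banded rats. The sham level was 2.58-fold lower than control (25.5 against 65.8 RPM), and both surgery columns lay below both exercise columns. This was a dense bin between sparser ones: per Mb it stood at 9.68 log2 RPM in control and 8.32 in sham, with neighbours at 7.79 and 8.05 in control and 8.01 and 8.06 in sham.

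**Figure D4:**
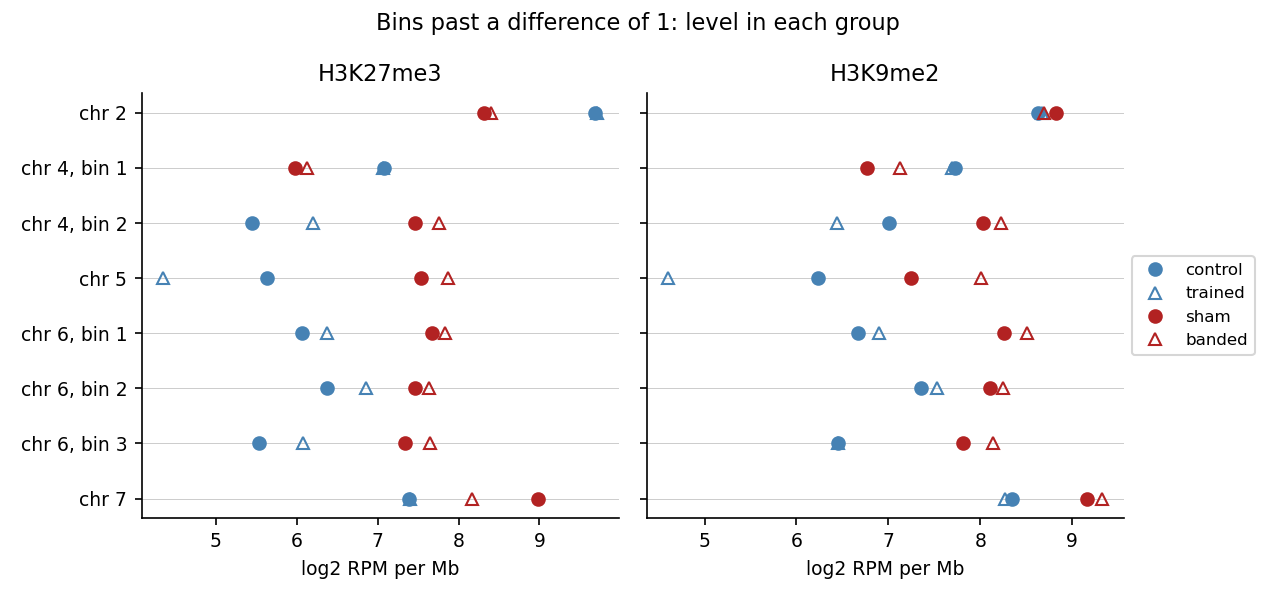
Levels of H3K27me3 (left) and H3K9me2 (right) in log2 RPM per Mb (horizontal axes) in the 8 bins past a difference of 1, numbered by position within a chromosome, 1 symbol per group. For H3K27me3 the sham and banded symbols (red) lie on the same side of the control and trained symbols (blue) in all 8 bins; for H3K9me2 on chromosome 2 the 4 symbols lie close together, with sham 0.19 above control.

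The other higher bins picked by size of difference were long. They lay on chromosome 13 from 375000 to 1305002 (0.85, from 6.82 log2 RPM in control to 7.67 in sham), on chromosome 19 from 41355000 to 41815002 (0.81, from 6.56 to 7.37), on chromosome 13 from 27085000 to 28605002 (0.81, from 7.56 to 8.37) and on chromosome 17 from 68785000 to 69565002 (0.78, from 6.91 to 7.69). The longest higher bin, on chromosome 7 from 94725000 to 96665002 (1940 kb), went from 8.45 in control to 9.10 in sham, a difference of 0.66. All 5 were above 0 in banded minus trained, between 0.71 and 1.18.

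The other lower bins picked in this way were short, and all but 1 were 40.0 to 50.0 kb long. They lay on chromosome 4 from 149925000 to 149975002 (-0.96, from 5.42 log2 RPM in control to 4.47 in sham), on chromosome 7 from 41035000 to 41075002 (-0.90, from 5.01 to 4.11), on chromosome 9 from 6005000 to 6045002 (-0.87, from 4.79 to 3.92) and on chromosome 1 from 177935000 to 177975002 (-0.78, from 4.94 to 4.16) and from 177975000 to 178055002 (-0.86, from 5.15 to 4.28). All 5 were below 0 in banded minus trained, between -1.04 and -0.74. With the pseudocount these differences were smaller, between -0.60 and -0.44. The longest lower bin, on chromosome 17 from 72015000 to 72555002 (540 kb), went from 7.36 in control to 6.64 in sham (-0.72). In the other columns trained was at 7.21 and banded at 7.07, so banded was above sham by 0.43 and the banded minus trained difference was -0.13.

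Most bins past 0.5 stood alone. With 1.81% of all bins higher and 1.33% lower, neighbours past 0.5 would be few in any case. The 176 higher bins formed 169 single bins, 2 pairs and 1 run of 3, and the 129 lower bins formed 127 single bins and 1 pair, the adjacent bins on chromosome 1 above. The run of 3 was on chromosome 13 from 28995000 to 30375002, with differences between 0.51 and 0.72, and the pairs were on chromosome 12 from 35715000 to 36555002 (0.56 and 0.61) and chromosome 5 from 165825000 to 166505002 (0.58 and 0.60). Of 8218 pairs of adjacent bins, 49.1% had the same sign, and the Pearson r between neighbours was 0.036. Once the density and length trend was taken out, r was 0.288 over the same pairs. The densities of neighbouring bins had an r of 0.053.

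Chromosome medians spanned 0.0985 log2 RPM. The median difference was highest on chromosomes 11 (0.052 log2 RPM), 13 (0.035) and 2 (0.029) and lowest on chromosomes 10 (-0.047), 16 (-0.042) and 1 (-0.041). Of the 20 medians, 16 were below 0. The median over all bins was itself -0.010, so this count does not show a loss on most chromosomes. The order went with how densely a chromosome was marked: over the 20 chromosomes, the median difference and the median density had a Pearson r of -0.806 (Spearman rho -0.743), a description of points that share columns and normalization. Chromosome 10 had a median density of 8.70 log2 RPM per Mb and chromosome 11 one of 8.24. Within 5 Mb of chromosome ends, 10 of 741 bins were higher (1.35%) and 8 were lower (1.08%), near the shares over all bins.

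**Figure D5:**
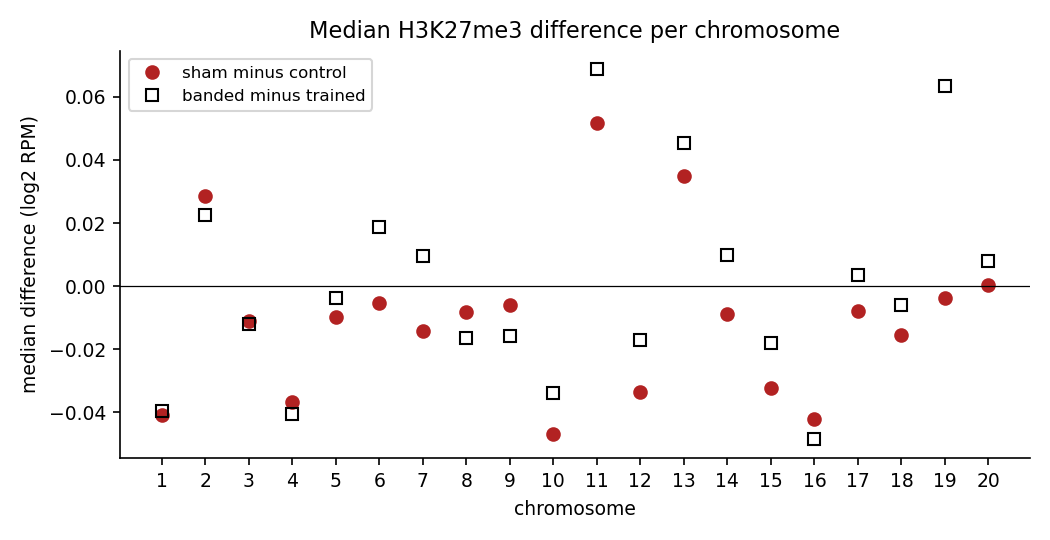
Median H3K27me3 difference in log2 RPM (vertical axis) per chromosome (horizontal axis), filled circles for sham minus control and open squares for banded minus trained. Sham minus control runs from -0.047 on chromosome 10 to 0.052 on chromosome 11.

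Some bins stood away from the density and length trend, a set defined after the data were seen. The SD around the joint fit was 0.166 log2 RPM, and 20 bins (0.206%) lay more than 0.5 above it and 54 (0.557%) more than 0.5 below it. All 74 lay on the same side of the corresponding fit in banded minus trained, and 31 were also past 0.5 as deposited. Over all 9703 bins, the distances from the fits had a Pearson r of 0.787 between these differences, and both fits used the same bin lengths. The shared side of the 74 largest distances goes with this r and is not a further result. The share of all bins on the same side of both fits is not given here. The 8 bins past 1 were among the 74. Below the fit were also some of the sparsest and longest bins, which were not higher in sham as other sparse bins were. The longest bin of all, on chromosome 7 from 3235000 to 7855002 (4620 kb), had 8.54 log2 RPM in control and 8.31 in sham (-0.23), and its banded minus trained difference was 0.20. A bin on chromosome 12 from 19855000 to 20755002 went from 6.52 to 6.06 (-0.46), and one on chromosome 4 from 46935000 to 47535002 went from 4.61 to 4.47 (-0.15).

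H3K9me2, dimethylation of lysine 9 on histone H3, is a mark of broad silent domains that is written by other enzymes, among them EHMT1 and EHMT2. It was measured in the same 4 groups on bins of its own, of which 877 of 6171 (14.2%) were higher in sham than in control by more than 0.5 and 765 (12.4%) were lower. H3K9me2 levels per Mb were averaged over each H3K27me3 bin with at least 50% of its length covered (9695 bins). Over these, the differences of the 2 marks had a Pearson r of 0.614 (Spearman rho 0.629) and the same sign in 72.6% of bins; neighbouring bins can share 1 H3K9me2 bin, and the densities of the marks themselves had an r of 0.552. After the density and length trend was taken out of the H3K27me3 difference, r was 0.363.

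The H3K9me2 differences in the 2 sets of bins past 0.5 are set beside those of their density classes. In the 175 measured bins where H3K27me3 was higher in sham, the median H3K9me2 difference was 0.61 log2, 174 bins were above 0 and 122 (69.7%) were past 0.5, against 11.1% of all bins and 20% and 25.8% of the 2 sparsest density classes, whose medians were 0.24 and 0.26. Above 0 were 4697 of all 9695 bins, and 810 of 965 and 795 of 970 in those 2 classes. In the 129 bins where H3K27me3 was lower, the median H3K9me2 difference was -0.16, 103 bins were below 0 and 26 (20.2%) were past -0.5, against 5.25% of all bins. In the densest class as a whole, which held 47 of these 129 bins, the median was -0.43 and 39.8% were past -0.5, and in the next class, which held 32, they were -0.21 and 7.94%. The share past -0.5 among the lower bins thus lay between those of these classes. Below 0 were 4746 of all 9695 bins, and 895 of 971 and 786 of 970 in these 2 classes. The lower bins were thus not more often below 0 in H3K9me2 than the bins of these classes, and their median was nearer 0. The flattening by density was present for H3K9me2 too, with a slope of -0.69 per doubling of its own density in sham minus control and -0.44 in banded minus trained. Within the experiments the H3K9me2 slope was 0.042 for banded minus sham (Pearson r 0.076) and -0.085 for trained minus control (r -0.400). A smaller slope of the same sign was thus also present within the exercise experiment. Each of these H3K9me2 slopes used density from its own 2 columns. Its sign therefore only tells which of the 2 columns had the smaller spread per Mb.

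Among the named bins, H3K9me2 was higher in sham in the chromosome 5 bin (by 1.01 log2), in the chromosome 6 bins from 139065000 (1.59), 139305000 (0.75) and 142965000 (1.36), in the chromosome 7 bin from 105735000 (0.82) and in the chromosome 4 bin from 101395000 (1.02). It was lower in the chromosome 4 bin from 98445000 (-0.96) and in the chromosome 6 bin from 140875000 (-1.09). In the chromosome 2 bin with the largest negative H3K27me3 difference, it was higher by 0.19, at 8.63 log2 RPM per Mb in control and 8.82 in sham. The short lower bins on chromosome 4 from 149925000 (0.059) and on chromosome 7 from 41035000 (-0.014) had almost no H3K9me2 difference.

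The make-up of the sorted nuclei could be looked at only in the RNA libraries, which the labels do not tie to the chromatin samples. In the authors' deposited table of PCM1-positive against PCM1-negative nuclei, 1319 of 12848 genes favoured PCM1-negative nuclei by over 8-fold at a false discovery rate under 0.05. The direction was inferred: the side whose genes had the lower median count in control library 1 was taken as PCM1-negative. Control library 1 is also among the libraries compared here. These genes took 4.32%, 0.685%, 0.658% and 1.58% of the counts in sham libraries 1 to 4, and 0.956%, 0.728%, 0.536% and 0.944% in control libraries 1 to 4. Sham libraries 1 and 4 were above every control library, and sham libraries 2 and 3 lay within the control range. Sham libraries 2 and 3 differed by little over the counting error (a squared difference of 1.27 times the counting variance, against 6.06 to 58.9 for the other pairs within these groups) and were counted as 1 sample by their mean. The share was then 2.19 ± 1.90% in sham (SD, n = 3) and 0.791 ± 0.200% in control (SD, n = 4), a difference of 1.40 percentage points (exact two-sided permutation test, p = 0.229; the smallest p these groups allow is 0.0571). Without sham library 1 the difference was 0.333 percentage points (2 sham values, from library 4 and the mean of libraries 2 and 3). The part of the nuclear make-up in the H3K27me3 difference was not tested.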

How the data were processed

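The authors deposited H3K27me3 and H3K9me2 as log2 RPM per bin, 1 column per group, per the file headers. The sources used here do not say how the 4 samples of a group were combined, how the columns were normalized or which samples set the bin borders; the borders may therefore depend on the groups compared. Bowtie, SAMtools, R 2.15.1 and edgeR are named without roles in the submitters' processing notes. The depth of the chromatin libraries is unknown, since no chromatin counts were used.

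Differences were taken bin by bin without a pseudocount (Python 3.11.15, numpy 2.4.6, pandas 2.3.3, scipy 1.17.1), density was log2 RPM minus log2 of the bin length in Mb, and slopes were least squares fits over bins, tested on simulated data. Named bins were the 8 largest differences in each direction among bins above the lowest 10% by mean level, up to 3 longest runs past 0.5 and the longest bin past 0.5 in each direction. Members and lists were chosen with earlier results of these data known.

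RNA counts were raw and whole-numbered as deposited, per the file headers, with 1 as the smallest stored count; totals were 3.18 to 14.1 M in the sham libraries and 1.82 to 7.80 M in the control ones. The log2 fold changes and false discovery rates (adjusted p-values) between PCM1-positive and PCM1-negative nuclei are from the authors' deposited table, whose test is not stated there. A planned test of the RNA of H3K27 methylation genes and a check of cell type markers were not run, because gene IDs could not be paired with names.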

Additional observations from a re-analysis of the deposited data

How the results depend on the processing

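The counts of bins past 0.5 depend on the processing. The 176 higher bins became 53 with a pseudocount of 18.4 RPM, 37 with columns per Mb scaled to equal mean and SD, 32 with quantile normalization per Mb and 6 at a threshold of 1. The 129 lower bins became 10, 63, 53 and 2 in the same order, and 4 without bins shorter than the median. Of the 305 bins past 0.5, 64 remained among the 100 after scaling and 52 among the 85 after quantile normalization. Leaving out the lowest 10% of bins gave 172 and 111, and median-centring gave 195 and 115. The slope on density was -0.23 to -0.20 for sham minus control under the other choices of bins, weights and density, and the share with the same sign in banded minus trained was 100% in each alternative run. Of 24 named bins, 11 moved by more than 1.5 times with the pseudocount, among them the chromosome 4 bin from 101395000 (to 0.78) and the chromosome 6 bin from 142965000 (to 0.75), and no named bin changed sign. The 74 bins off the trend became 26 with the pseudocount. For the PCM1-negative genes, leaving out each library in turn gave differences of 0.333 to 1.70 percentage points, and genes more than 2-fold higher gave 2.47. The alternatives on the bins off the trend, on the PCM1-negative genes and the density from the other columns were chosen after seeing the data. No paired analysis was possible because each group has 1 chromatin column. The alternatives of the planned RNA test were not run.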
